A study of Homo sapiens with 6 samples.

Results

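The transcript models described here were those that long reads gave to annotated genes with at least 1 splice site absent from the annotation. TALON, the program that assigned the reads, gives such a model the class NNC, and the members were all models of that class whose gene was annotated in Gencode 44. They were 381 of the 21472 models in the count table, and they lay in 234 of its 10072 genes. The 4 classes of the 18272 models of annotated genes were known models (15074), partial models that match a stretch of a known transcript (1435), new combinations of annotated splice sites (1382) and the 381 members. The class, the exon number and the length in bases were given for each model, but not the positions of its junctions, so the new sites themselves are not shown.

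Introns are cut out at a donor site at their 5′ end and an acceptor site at their 3′ end. Most human introns start with GT and end with AG, a minority start with GC, and a smaller group, often removed by the minor spliceosome, starts with AT and ends with AC. A model of the NNC class therefore differs from the annotation in where an exon begins or ends, whereas a new combination only joins annotated ends in another order. In long-read data such a model can hold a transcript isoform, and it can also hold reads whose alignment or strand placed an exon end a short way off, which the class name does not separate.

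The reads came from Calu-6, an established human lung cancer cell line, in 6 PCR-cDNA libraries from polyA RNA run on 1 nanopore flow cell for 72 h. Cells received 10 nM of siRNA with RNAiMAX for 48 h, either a non-silencing sequence (siControl, 3 libraries) or 1 directed to the site where exon 1 meets exon 5 in TERT Delta 2-4, a splice form of the telomerase gene (siDelta2-4, 3 libraries). The comparison asked which transcripts changed when the variant was depleted. The labels give the genotype as WT, while the names of the count columns hold the word that the study uses for cells carrying an empty Flag-V5 vector, and which of these applied was not resolved.

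Library totals ran from 1037468 to 1106413 counts in siControl and from 1070009 to 1309241 in siDelta2-4, and libraries are named below by the rank of their total within the group. KRT8 and KRT18, keratins of epithelial cells, were at 111 to 139 and 154 to 188 CPM (counts scaled to the size of the library), while EPCAM was at 0.958 to 2.92 CPM, KRT7 at 2.92 to 8.44 CPM and KRT19 at 0 to 0.813 CPM, and CDH1 had 0 rows. Of the mesenchymal markers, VIM was at 125 to 146 CPM in siControl and 153 to 167 CPM in siDelta2-4, without overlap, FN1 was at 0 to 0.936 CPM and CDH2 had 0 rows. The part of this VIM difference in the comparisons below was not tested, and the leukocyte markers PTPRC and CD3E and the endothelial markers PECAM1 and VWF had 0 rows. TERT had 0 rows in the count table used here, so the siRNA target itself was not analysed. In bulk libraries, fewer cells making a transcript and less of it per cell cannot be told apart. The study calls the libraries of a group biological replicates, and the p-values measure the spread between them.

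A few annotated sequences of host genes on GRCh38 are shown first, because the members' shares and exon numbers are set beside such features below. All were taken from the Ensembl canonical transcript of the gene in Gencode 44. The first set gives the ends of introns in host genes whose canonical transcript has an intron other than GT-AG, with the first or last 2 intron bases in capitals. SPCS2 and SPCS3 are subunits of the signal peptidase complex, ESD is a serine hydrolase that acts on S-formylglutathione, and RABGGTB is the beta subunit of the enzyme that adds geranylgeranyl groups to Rab proteins. Their introns were number 3 of 4 in SPCS2, number 2 of 4 in SPCS3, number 9 of 9 in ESD and number 8 of 8 in RABGGTB.
SPCS2 donor, chr11:74965921-74965929, plus strand: atcATatcc
SPCS2 acceptor, chr11:74969545-74969567, plus strand: ccccttaactttatttgaACcta
SPCS3 donor, chr4:176322241-176322249, plus strand: ctgATatcc
SPCS3 acceptor, chr4:176324161-176324183, plus strand: attttccttaatttacttACatc
ESD donor, chr13:46777450-46777458, minus strand: gagGCaagt
ESD acceptor, chr13:46771494-46771516, minus strand: atcatctctttatcttctAGggt
RABGGTB donor, chr1:75794231-75794239, plus strand: atgGCaagt
RABGGTB acceptor, chr1:75794490-75794512, plus strand: ataaattcttttttaaatAGgtg

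The second set gives internal exons of 30 bases or fewer in host genes where all members (ATP5MJ and COMMD6) or 5 of 7 (UQCRH) had 1 exon fewer than the canonical transcript, with the exon in capitals and intron bases in lower case. ATP5MJ is a small subunit of the mitochondrial ATP synthase, UQCRH is the hinge protein of respiratory complex III, and COMMD6 is a COMM domain protein.
ATP5MJ exon 3 of 4, chr14:103913958-103913987, minus strand: tagATAAAAGAAGTAAGGCTTTGAAAGgta
UQCRH exon 2 of 4, chr1:46309100-46309128, plus strand: gGAGGAAGAGGAAGAGGAGGAATTAGTGg
COMMD6 exon 2 of 4, chr13:75537661-75537678, minus strand: cagGTCACCAACCAGgtg

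The third set gives the ends of intron 1 of RPLP1, which codes for a ribosomal stalk protein, first on its own strand and then as they read on the strand of KIF23-AS1, a long non-coding RNA gene annotated on the other strand with many members of this class. The capitals mark the 2 outermost intron bases.
RPLP1 donor, chr15:69453018-69453026, plus strand: acgGTgagt
RPLP1 acceptor, chr15:69453627-69453649, plus strand: gacgtttttatttgttgtAGgag
RPLP1 acceptor position on the other strand, chr15:69453627-69453649, minus strand: ctcCTacaacaaataaaaacgtc
RPLP1 donor position on the other strand, chr15:69453018-69453026, minus strand: actcACcgt

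The members were small in number of counts. A member had a median of 73 counts over the 6 libraries, with a range of 25 to 2988, and the 10 members with the most counts held 24.6% of the 59675 counts on members. The median member had 5 exons (2 to 15) and 662 bases, against 807 bases for the partial models, 807.5 for the new combinations and 1264 for known models with at least 25 counts. A member held a median of 1.23% of the counts of its gene, with a range of 0.0597% to 100%. Its share was under 1% for 176 members, 1% to under 5% for 125, 5% to under 20% for 51 and 20% or more for 29, of which 13 had over 50%.

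The study kept unannotated models with 5 reads in 3 samples and named no group. In the table every member had at least 5 counts in each siDelta2-4 library, so the members are treated here as selected on that group. All 381 members nevertheless had at least 1 count in every siControl library. In 305 members every library had at least 5 counts, and 76 members were under 5 in 1 or more siControl libraries.

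Host genes were mostly those with many reads. Of the 130 annotated genes with at least 10000 counts, 71 (54.6%) held a member, and of the 462 with 1000 to under 10000 counts, 109 (23.6%) did. The share fell to 41 of 798 (5.14%) between 200 and 1000 counts, to 13 of 1837 (0.708%) between 25 and 200, and to 0 of 4941 below 25, the smallest total of any member. Of the 234 hosts, 157 held 1 member, 61 held 2 or 3 and 16 held 4 or more. By gene type, 193 hosts were protein-coding genes with 302 members and 30 were long non-coding RNA genes with 60 members.

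The introns of the hosts were looked at first. This feature, like the short exons and the opposite-strand genes below, was chosen after the members' values had been seen, and it is given as counts with no test. The canonical transcript had an intron other than GT-AG in 26 of the 234 hosts, with a GC-AG intron in 22 and an AT-AC intron in 4. Among annotated spliced genes with at least 200 counts, 21 of the 60 genes with such an intron (35.0%) were hosts, against 187 of the 1205 genes with GT-AG introns alone (15.5%). The hosts were the more frequent in genes with such an intron at each depth. They were 5 of 85 against 7 of 1603 genes at 25 to under 200 counts and 9 of 35 against 29 of 718 at 200 to under 1000. At 1000 or more they were 12 of 25 against 158 of 487. Among these 12 were CLHC1, RPS27A and PIDD1, whose known models held under 1% and which are set beside opposite-strand genes below. With known models at 1% or more, the values were 4 of 56 against 2 of 1493 and 5 of 19 against 23 of 619. At 1000 or more only 5 genes with such an intron remained, 4 of 5 against 105 of 357. Per intron, 9 of the 746 introns (1.21%) of hosts with at least 200 counts and at least 1% of them on known models were not GT-AG, against 16 of 4356 (0.367%) in the other genes of that kind.

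**Figure D1:**
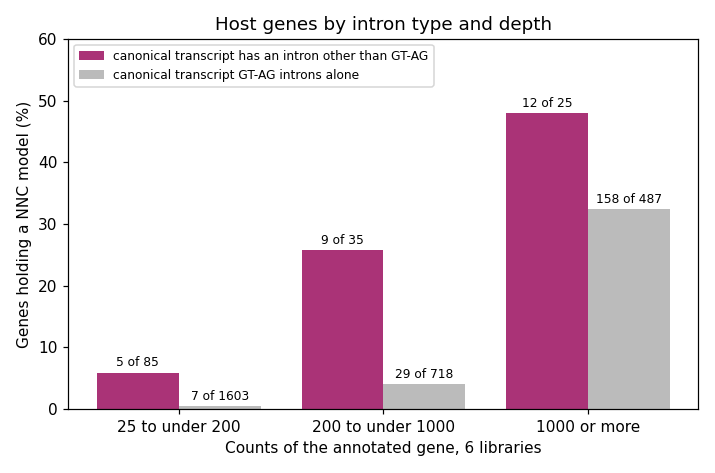
Percentage of annotated spliced genes that held at least 1 NNC model (vertical axis, from 0) by the counts of the gene over the 6 libraries (horizontal axis), for genes whose canonical transcript has an intron other than GT-AG (dark bars) or GT-AG introns alone (grey bars). The numbers above the bars are hosts of all genes, those with known models under 1% of their counts included. The dark bar is the higher at each depth, 25.7% against 4.04% at 200 to under 1000 counts.

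The same introns went with a high share of the gene. Such an intron was present in the host of 11 of the 29 members with a share of 20% or more and of 9 of the 51 members at 5% to under 20%. It was present for 5 of the 125 members at 1% to under 5% and for 15 of the 176 members under 1%. These counts include hosts with known models under 1% of their counts, among them CLHC1 and PIDD1, which are described below with the opposite-strand genes. In hosts with at least 1% of their counts on known models, 15 of the 16 members of such hosts had the exon number of the canonical transcript.

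The named members with the highest shares, taken from genes with at least 200 counts, included 6 of 10 in hosts with such an intron. ESD held 445 of its 593 counts on 1 member (TALONT000482006) of 10 exons, the number of its canonical transcript, and the other counts lay on partial models. Its share was 77.8%, 68.2% and 77.7% in the siControl libraries of highest, middle and lowest total, and 72.0%, 73.5% and 81.1% in the siDelta2-4 libraries in the same order. The groups overlapped, and no counts of ESD lay on a known model. SPCS2, with the AT-AC intron shown above, held 406 of 633 counts on a member (TALONT000652834) of 5 exons, its canonical number, and 91 on a second one. The first had a share of 55.6%, 73.5% and 63.3% in siControl and of 65.4%, 59.6% and 69.4% in siDelta2-4, again with overlap.

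SPCS3, the other signal peptidase subunit with an AT-AC intron, had 93 of 273 counts on a member of 5 exons, also its canonical number. Its share was 31.2%, 30.2% and 47.4% in siControl and 28.0%, 38.1% and 32.7% in siDelta2-4 with overlap. The remaining 65.9% of the counts of SPCS3 lay on known models, against 6.95% for SPCS2. RABGGTB had 143 of 399 counts on a member of 9 exons, its canonical number, and the others lay on partial models. DCAF13, a nucleolar protein of ribosome assembly, had 70 of 207 counts on a member of 11 exons, its canonical number, and a GC-AG intron. ENSG00000290318, a protein-coding gene without a symbol, had 71 of 213 counts on its member and a GC-AG intron as well.

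Hosts with fewer counts had higher shares whatever their introns, since every member had at least 25 counts. With GT-AG introns alone, members took a median of 66.7% of hosts with 25 to under 200 counts, 12.3% at 200 to under 1000 and 1.86% at 1000 or more, against 89.9%, 33.8% and 2.89% where an intron was not GT-AG. UBE2K, a ubiquitin-conjugating enzyme, had 53 of 55 counts on its member, NMT1, which attaches myristate to proteins, had 36 of 38, and LCMT1, which methylates the catalytic subunit of protein phosphatase 2A, had 62 of 69. The canonical transcript of UBE2K and of NMT1 has 1 GC-AG intron, and that of LCMT1 has GC-AG introns at positions 2 and 5 of 10. SOD1, the cytosolic superoxide dismutase, has a GC-AG intron 1 and held 17.3% of 2827 counts on 3 members, and KRT18 has a GC-AG intron 3 and held 11.4% of 1124 counts on 1.

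**Figure D2:**
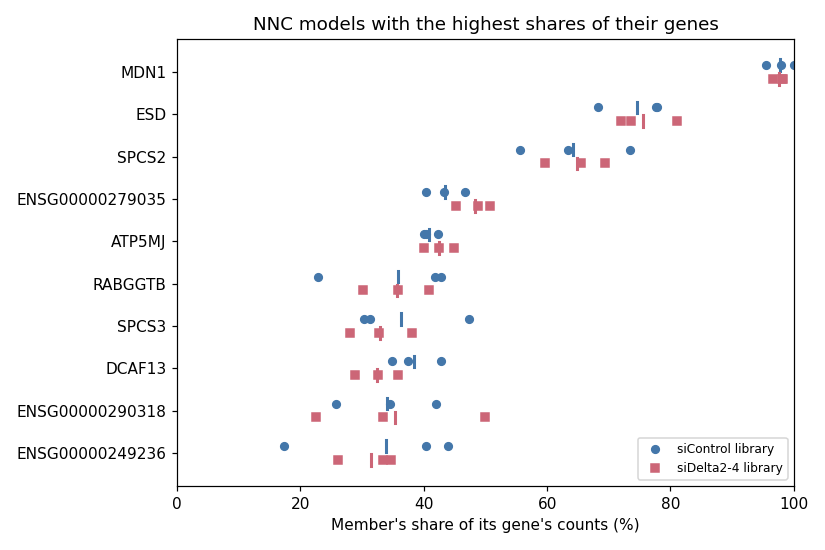
Share of the counts of the gene on the named member (horizontal axis, %) in each siControl library (circles) and each siDelta2-4 library (squares) for the 10 genes with the highest shares among genes with at least 200 counts; vertical lines are group means of 3 libraries. The groups overlap for each of the 10 genes, DCAF13 included, at 38.4% ± 4.11 (SD, n = 3) in siControl and 32.4% ± 3.53 (SD, n = 3) in siDelta2-4.

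Of the other 4, MDN1, ATP5MJ and ENSG00000249236 had GT-AG introns alone, and the canonical transcript of ENSG00000279035 has 1 exon and no intron. MDN1, a very large AAA ATPase of ribosome assembly, had 298 of its 305 counts on a member (TALONT000346168) of only 2 exons and 641 bases, where its canonical transcript has 102 exons. The share was 98.0%, 100% and 95.5% in siControl and 98.0%, 96.6% and 98.3% in siDelta2-4. The MDN1 locus was thus represented almost only by this short spliced model, at a like share in each library. ATP5MJ is described with the short exons. ENSG00000279035, a gene of unclear type, and ENSG00000249236, a long non-coding RNA gene, had 427 of 930 and 97 of 298 counts on their members.

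Short internal exons were the second feature. In hosts with at least 1% of their counts on known models, 169 of 217 members (77.9%) had the exon number of the canonical transcript, 33 had 1 exon fewer and 7 had 1 more. Where the canonical transcript held an internal exon of 30 bases or fewer, 14 of 18 members (77.8%) had 1 exon fewer, in 9 of the 11 hosts of this kind. In the 134 hosts without such an exon, 19 of 199 members (9.55%) did. Which exon a member lacked was not shown, since the positions of its junctions were not given. Of the hosts with at least 200 counts that were spliced and had known models at 1% or more, 11 of 137 (8.03%) had such an exon, against 26 of 863 (3.01%) other genes of that kind.

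ATP5MJ was the clearest case. Its larger member (TALONT000517201) had 3 exons and 609 bases, against 4 exons and 615 bases for the canonical transcript, whose exon 3 of 24 bases, all coding, is printed above. It had 1025 of the 2461 counts of the gene, and a second member of 3 exons brought both to 45.1%. The share of the first was 40.4%, 42.2% and 40.1% in siControl and 40.0%, 44.9% and 42.5% in siDelta2-4. The 3 siControl values lay within the range of the siDelta2-4 values, and 42.0% of the counts of the gene lay on known models.

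UQCRH held 7 members with 1092 of 6334 counts (17.2%), and its canonical exon 2 has 27 bases. Of its members, 5 had 3 exons and 2 had the 4 exons of the canonical transcript. The largest, with 435 counts, was one of the 2. COMMD6, with a 12-base exon 2, had 153 of 1471 counts (10.4%) on 3 members, all with 3 exons where the canonical transcript has 4. GPX4, the glutathione peroxidase that reduces lipid hydroperoxides, has a 25-base exon 5 of 7 and had 15.9% of its 1248 counts on a member of 6 exons.

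A NAG repeated at the acceptor, which offers an AG 3 bases to either side, separated hosts less. Such acceptors (NAGNAG, read on the strand of the gene) were 5.90% of the 746 introns of the hosts above and 4.55% of the 4356 introns of the other genes.

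The third feature was a gene on the other strand. For each host, the opposite-strand gene with the most counts within 100 kb was taken. In 127 of 234 hosts (54.3%) its count was within 1.5-fold of that of the host, while the largest same-strand neighbour was that close for 8 hosts (3.42%). For genes with at least 1000 counts, the opposite-strand share was 65.0% of 180 hosts and 50.2% of 412 other annotated genes, and the same-strand share was 2.78% and 3.16%. A count near that of an opposite-strand gene was therefore common among deeply counted genes in general. Whether the counting used strand is not given in the sources used here, so reads of a gene and of its opposite-strand partner cannot be told apart in these values.

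**Figure D3:**
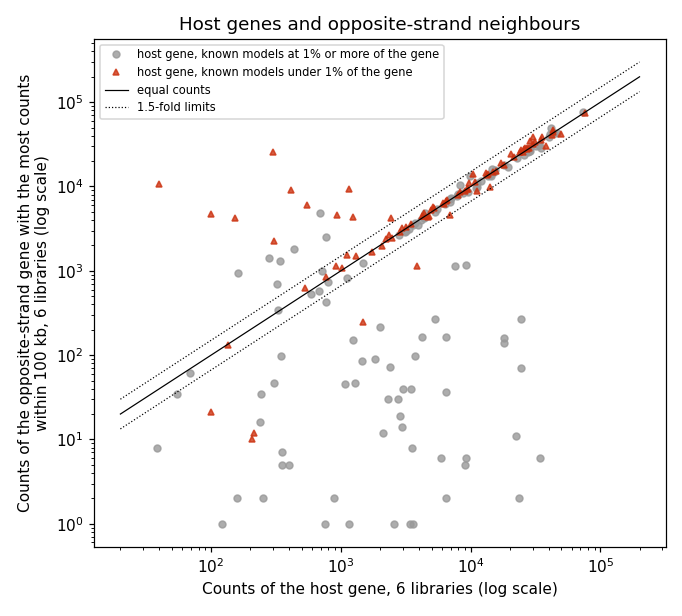
Counts of the opposite-strand gene with the most counts within 100 kb (vertical axis, log scale) against the counts of the host gene (horizontal axis, log scale), each over the 6 libraries, for hosts with known models under 1% of their counts (triangles) and at 1% or more (circles). The solid line marks equal counts and the dotted lines 1.5-fold; 127 of the 234 hosts lie between the dotted lines, and hosts with no counted opposite-strand gene in reach are not drawn.

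The hosts split on how much of the gene was annotated. In 89 hosts known models held under 1% of the counts, and in 67 of these the opposite-strand gene was within 1.5-fold. This was not particular to hosts. At 1000 counts or more, known models were under 1% in 70 of 180 hosts and in 101 of 412 other annotated genes. The opposite-strand gene was within 1.5-fold for 63 of those 70 hosts and for 87 of those 101 other genes. These 67 hosts held 134 members and 42.5% of the member counts, and the opposite gene coded for a cytosolic ribosomal protein in 26 of them. The annotated spans overlapped in 31 of the 67 pairs and were apart in the others, by up to 82905 bases for CD27-AS1 and GAPDH. Of the 134 members, 108 (80.6%) had the exon number of the most counted model of the opposite gene, and 7 (5.22%) had that of the canonical transcript of their own gene. No splice position of the opposite genes' canonical transcripts was annotated in the host, but only pairs with overlapping spans could share one. Counted once per host, 298 of the 302 canonical introns of the opposite genes (98.7%) were GT-AG on their own strand. On the strand of the host these necessarily read CT at the start and AC at the end, as in the RPLP1 lines above.

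KIF23-AS1 was the largest of these hosts, with 76187 counts against 73693 for RPLP1, which lies 37785 bases away. Its 6 members all had 4 exons, the number of RPLP1, while its canonical transcript has 3, and they held 2352 counts (3.09%). The largest was at 192, 176 and 193 CPM in siControl and at 203, 187 and 205 CPM in siDelta2-4, in libraries of highest, middle and lowest total. The values of the groups overlapped. CD27-AS1 had the most members of any gene, 9, with 1616 counts (3.78%). All 9 had 9 exons, the number of GAPDH, while the canonical transcript of CD27-AS1 has 6.

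PIDD1, which codes for a death domain protein induced by p53, had 6 members of 5 exons, the number of RPLP2, against 16 in its own canonical transcript. LYPD4, a LY6/PLAUR domain protein, had 43200 counts beside 46298 for RPS19, and its largest member had the 6 exons of RPS19 and 507 bases, while its other 2 members had 5, the number of its own canonical transcript. CLHC1, a clathrin linker domain protein, carried the member with the most counts of all (TALONT000581275), 2988, with the 6 exons of RPS27A where its canonical transcript has 13. The largest member of RPS27A was second, with 2029 counts and also 6 exons. In RPS27A known models held 0.00785% of 38225 counts, so a ribosomal protein gene itself fell among the 67.

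**Figure D4:**
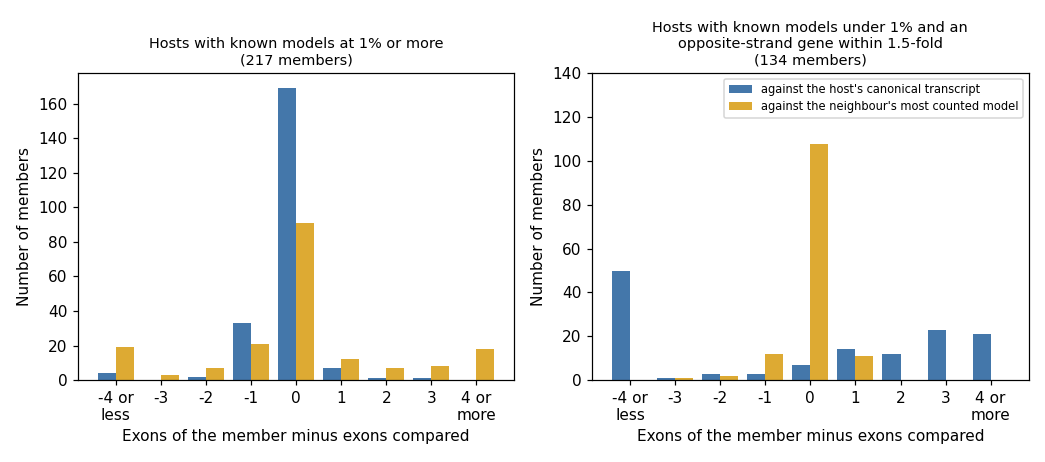
Number of members (vertical axis, from 0) by the difference in exon number (horizontal axis, exons), against the canonical transcript of the host (blue) and against the most counted model of its opposite-strand neighbour (yellow), for 217 members of hosts with known models at 1% or more (left) and for the 134 members of the 67 hosts described above (right). The tallest bar, at 0, is the blue one on the left, 169 members, and the yellow one on the right, 108 members.

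The other 145 hosts, with at least 1% of their counts on known models, held 217 members and 52.3% of the member counts. Of these hosts, 60 also lay opposite a gene within 1.5-fold, and 86 of their 111 members (77.5%) had the exon number of the most counted model of that gene, while 90 (81.1%) had that of their own canonical transcript. The last 22 hosts, with known models under 1% and no such neighbour, held 30 members with a median share of 13.3% of the gene, against 0.652% in the 67 hosts and 1.35% in the 145. ESD, RABGGTB and DCAF13 belonged to these 22.

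By role, the cytosolic ribosomal proteins were the list with the most hosts. Of the 84 such genes in the table, 41 were hosts, with 82 members and 30.05% of the member counts, and 40 of the 73 with at least 1000 counts were hosts. At 10000 counts or more, 30 of 46 of these genes (65.2%) were hosts, against 41 of 84 other annotated genes (48.8%), and at 1000 to under 10000 counts 10 of 27 (37.0%) were, against 99 of 435 (22.8%). Ribosomal protein genes have near-identical retrocopies in the genome between which reads can be split, so their counts are uncertain. The genes with the largest members included RPS27A, RPL27A, RPL28, RPL29 and RPL35A. RPL27A had 1873 counts on a member of 5 exons, its canonical number. The member of RPL27A varied between libraries of 1 group, at 214, 228 and 402 CPM in the siDelta2-4 libraries of highest, middle and lowest total and 283, 349 and 249 CPM in siControl. The member of RPL28 varied less within a group, at 200, 192 and 191 CPM in siControl and 187, 176 and 186 CPM in siDelta2-4. All siDelta2-4 values were below all siControl values, but the member was not called. RPL28 as a whole had a log2 fold change of -0.25 (edgeR adjusted p = 0.0489). Its 2 members together took 5.16% to 5.92% of the counts of the gene in siControl and 5.73% to 6.21% in siDelta2-4, with overlap.

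The nuclear-coded subunits of the respiratory chain and ATP synthase came next, with 15 of 110 genes, 25 members and 7.32% of the member counts. In glycolysis 3 of 15 genes were hosts (GAPDH, LDHB and TPI1), with 10 members, 6 of them in GAPDH. Of the genes of the proteasome and ubiquitin, 10 of 98 were hosts, of splicing and mRNA-binding factors 6 of 133, of mitochondrial ribosomal proteins 4 of 77, of the cytoskeleton 4 of 51, of translation factors 3 of 69 and of chaperones 3 of 66. The list of translation factors was matched by symbol and its 3 hosts included EIF2AK4, a kinase that phosphorylates a translation factor. Secretory pathway and membrane proteins gave 7 of 230 and long non-coding RNA hosts of small nucleolar RNAs 2 of 26. Of the members in these lists, the test described below called 1 of 104 tested (0.962%, against 6.91% of all models), that of SNRPD1 among the splicing factors. The median log2 fold change of the members tested was -0.03 for the 56 of the cytosolic ribosomal proteins and -0.04 for the 19 of the respiratory chain, beside 0.01 for all models tested. In all, 97 hosts with 163 members were in a list and 137 hosts with 218 members in none.

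The siRNA comparison began with the whole class. Members took 0.876% to 0.885% of the library counts in siControl, with a mean of 0.880% ± 0.00436 (SD, n = 3), and 0.864% to 0.911% in siDelta2-4, with a mean of 0.881% ± 0.0266 (SD, n = 3). The siControl values lay inside the range of the siDelta2-4 values. With the 305 members that had at least 5 counts in every library, which puts the same minimum on both groups, the means were 0.850% and 0.839%. As a share of the counts of the host genes alone, the members took 2.50% to 2.57% in siControl and 2.49% to 2.61% in siDelta2-4.

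Per model, edgeR's quasi-likelihood test with Benjamini-Hochberg adjustment over all 6768 models tested called 4 of the 251 members that passed its filter on low counts, 2 higher and 2 lower in siDelta2-4. Of all models 3.95% were called higher and 2.97% lower. The calls were 1.59% of the members, against 6.91% of all models called at an adjusted p under 0.1, and 8.39% of the known models, 6.60% of the partial models and 4.13% of the new combinations of annotated genes. At an unadjusted p under 0.05 there were 20 members (7.97%) against 17.9% of all models, and the CPM of the groups did not overlap for 38 members (15.1%) against 21.8%. The median log2 fold change of the members tested was -0.03, against 0.01 for all models. The 130 members not tested had at most 69 counts each, and the members' low counts limit what their fits could show.

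**Figure D5:**
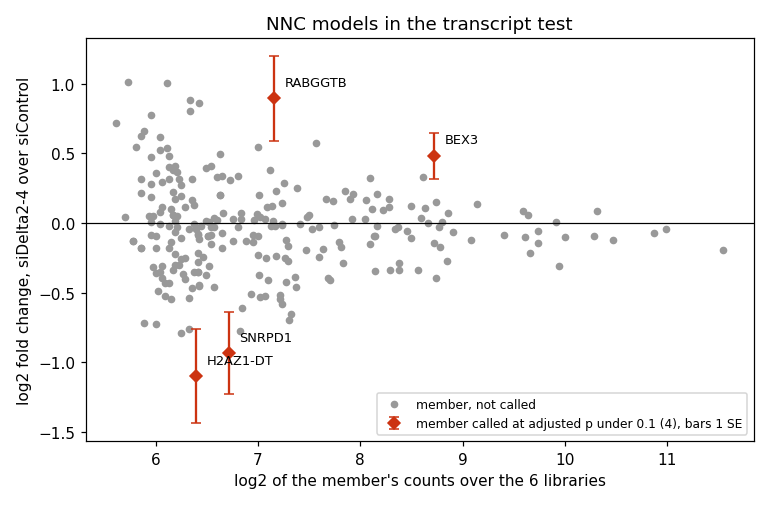
Log2 fold change of siDelta2-4 over siControl (vertical axis) against the log2 of the counts over the 6 libraries (horizontal axis) for the 251 members tested. Grey points are the members not called and red diamonds the 4 called at an adjusted p under 0.1, with bars of 1 SE; the called members lie between -1.10 and 0.90.

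The called member of H2AZ1-DT (TALONT000727226) belongs to a long non-coding RNA gene at chr4:99950006-100195099, plus strand, beside the gene of the histone variant H2A.Z. It had 24, 18 and 13 counts in the siControl libraries of highest, middle and lowest total and 11, 11 and 7 in the siDelta2-4 libraries. All siDelta2-4 values were below all siControl values. Its level fell with a log2 fold change of -1.10 ± 0.34 (SE, n = 3 per group, edgeR adjusted p = 0.0594). It had 5 exons and 866 bases, as the most counted model of H2AZ1 on the other strand has, and the whole genes H2AZ1-DT and H2AZ1 had 6440 and 6774 counts and log2 fold changes of -0.34 (edgeR adjusted p = 0.00983) and -0.28 (edgeR adjusted p = 0.0329).

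SNRPD1, at chr18:21612314-21633524 on the plus strand, codes for the Sm protein D1, a core protein of the spliceosomal snRNPs. Its called member (TALONT000286210) had the 4 exons of the canonical transcript, 324 bases, and 19, 26 and 21 counts in siControl against 15, 11 and 13 in siDelta2-4. The groups did not overlap, and the member fell with a log2 fold change of -0.93 ± 0.29 (SE, n = 3 per group, edgeR adjusted p = 0.0671). Its share of the gene was 4.93% ± 0.396 (SD, n = 3) in siControl and 2.89% ± 0.318 (SD, n = 3) in siDelta2-4, with a usage p of 0.0154 before adjustment and 0.807 after it (edgeR's diffSpliceDGE). SNRPD1 as a whole had a log2 fold change of -0.19 (edgeR adjusted p = 0.240).

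BEX3, a small protein known as an interactor of the p75 neurotrophin receptor, is encoded at chrX:103376395-103378164, plus strand. Its member (TALONT000309819) had 3 exons, its canonical number, and was at 54.0, 53.1 and 51.0 CPM in siControl and 66.3, 71.0 and 85.1 CPM in siDelta2-4. Every siDelta2-4 value was above every siControl value, and the member rose with a log2 fold change of 0.49 ± 0.17 (SE, n = 3 per group, edgeR adjusted p = 0.0979). The gene rose with it, at 0.25 (edgeR adjusted p = 0.0688), and the share of the member was 10.3% ± 0.653 (SD, n = 3) and 11.97% ± 1.37 (SD, n = 3). The member of RABGGTB (TALONT000398361, gene at chr1:75786197-75795086, plus strand) rose by 0.90 ± 0.30 (SE, n = 3 per group, edgeR adjusted p = 0.0958), at 14.5, 7.73 and 22.5 CPM in siControl and 21.8, 26.2 and 36.3 CPM in siDelta2-4. These values overlapped between the groups. The whole gene had a log2 fold change of 0.93 (edgeR adjusted p = 0.00308), and the share of the member was 35.8% ± 11.3 (SD, n = 3) and 35.6% ± 5.39 (SD, n = 3).

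The 4 calls changed with the libraries in the fit, and those of H2AZ1-DT, SNRPD1 and RABGGTB also rested on few counts. With each library left out in turn, the log2 fold changes of the 4 kept their sign. They ran from 0.37 to 0.55 for BEX3, 0.57 to 1.29 for RABGGTB, -1.04 to -0.81 for SNRPD1 and -1.30 to -0.86 for H2AZ1-DT. Without the siControl library of lowest total 14 members were called, 3 of them shared with the 4, and BEX3 was lost. Without the siControl library of middle total 1 other member was called, that of MICOS13. Without the siDelta2-4 library of highest total RABGGTB alone was, and without each of the other 3 libraries 0 were. The number of all models called in these fits was not counted. DESeq2 on all 6 called 0. Of the 4 it gave an adjusted p to BEX3 alone (DESeq2 adjusted p = 0.232), so those of RABGGTB, SNRPD1 and H2AZ1-DT were not set against the threshold.

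Among the 10 members with the most counts, each from another gene, none was called, and their log2 fold changes ran from -0.30 for LYPD4 to 0.08 for KIF23-AS1. The member of LYPD4 was at 178, 162 and 157 CPM in siControl and 128, 143 and 132 CPM in siDelta2-4, without overlap, and had an edgeR adjusted p of 0.149. The member of CLHC1 was at 482, 522 and 448 CPM in siControl and 448, 397 and 426 CPM in siDelta2-4, with an edgeR adjusted p of 0.252.

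Within genes, the use of a member against the other models of its gene was called for 0 of 244 members by edgeR's diffSpliceDGE, against 3 of 4188 models of all kinds (0.0716%). At an unadjusted p under 0.05 there were 10 members (4.10%) and 3.89% of all models, and no other tool was run for usage. With all members of a gene summed and set against the rest of the gene, 0 of 159 hosts were called, and 8 of them (5.03%) had an unadjusted p under 0.05. Over all 2060 combinations of gene and class compared in that test, 0 were called as well, and 2.38% had such a p. A gene could enter these combinations with several classes. The host genes themselves were called in 31 of 232 cases (13.4%), 11 higher and 20 lower in siDelta2-4. Of all 3888 genes tested with edgeR, 13.0% were called (7% higher and 5.97% lower). The 31 included both genes of some opposite-strand pairs, such as FABP4 with ENSG00000253859 and RPL32 with CAND2, whose reads cannot be told apart. The count of called hosts ran from 12 without the siDelta2-4 library of middle total to 92 without the siControl library of lowest total. How many of all genes were called in those fits was not counted, so this swing cannot be ascribed to the hosts.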

How the data were processed

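The deposited table held whole-number counts, 1 per model and library, which the authors had obtained from PCR-cDNA long reads. Per the submitters' notes and the methods of the study, reads were aligned to GRCh38 with minimap2 2.14, sorted with SAMtools 1.13, corrected with TranscriptClean, a step that also moves non-canonical junctions within a small distance, and assigned with TALON against Gencode 44. A model outside the annotation needed 5 reads in 3 samples to be kept, and no normalisation had been applied. Library totals were 1037468 to 1309241, which leaves a median member 73 counts in all.

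Each of the 6 columns went to a group through the siRNA named in its header. Shares are counts of a model over all counts of its annotated gene. Models, model usage (diffSpliceDGE), summed members per gene and whole genes were compared by edgeR 4.0.16 (R 4.3.3) on all rows that passed filterByExpr, with TMM normalisation, no covariate, two-sided quasi-likelihood tests and Benjamini-Hochberg adjustment, called at an adjusted p under 0.1. CPM used TMM-scaled totals. Exact permutation tests were run on library shares, where 3 against 3 libraries give no p below 0.1, and no p is given for them. Exons, introns, strands and sequences came from Gencode 44 and GRCh38. Scripts were tested on simulated counts.

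Named members were the 10 with the most counts and the 10 with the highest share in genes with at least 200 counts (1 per gene), called members without overlap in CPM, up to 5 in each direction, and members or hosts called in the usage tests. The 5 genes with the most members were named too. Other names were chosen after their values were seen, and 1 gene that the rule names is not reported here. The members, role lists and tests were chosen with earlier results of these data known. Alternatives were DESeq2 1.42.0, other scalings and filters, a threshold of 0.05, annotated genes alone, a loess trend on length removed (span 0.4), the same minimum of 5 counts in both groups, a replicate block, and each library left out in turn.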

Additional observations from a re-analysis of the deposited data

How the results depend on the processing

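The count of 4 called members became 2 with at least 10 counts in every library, a filter that the members of RABGGTB and H2AZ1-DT did not pass. It became 2 with a length trend removed, 0 at an adjusted p under 0.05 and 0 with DESeq2, which gave an adjusted p to BEX3 alone of the 4. With each library left out in turn it ran from 0 to 14. The count of 31 called host genes became 20 at an adjusted p under 0.05 and 50 with a length trend removed. It ran from 12 to 92 with each library left out. How many of all genes or models were called under each alternative was not counted. A replicate block on the column number gave 17 host genes and 3 members, without BEX3. These numbers were not tied to the labels' own, and their deviations did not pair (correlations 0.0432, -0.108 and -0.0783). Counts of 0 in both usage tests stayed 0 in the 15 alternatives run for each. The class share differed by 0.000432 percentage points between the groups, and by -0.0149 to 0.0086 with each library left out. Leaving partial models out of the denominator raised the share of CLHC1 to 59.6%, of RPS27A to 68.1%, of LYPD4 to 62.2%, of KIF23-AS1 to 32.3%, and of ESD and RABGGTB to 100%. The causes were not tested. Depth limits the rest, since 130 of 381 members could not be tested.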
